A study of Mus musculus with 16 samples.

Results

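The complement genes described here are 30 genes for complement components, the lectin pathway and fluid-phase regulators, picked by symbol from a table of 53465 genes counted in mouse liver. They were split by general knowledge of their source into 23 hepatocyte-made genes, 4 macrophage-made genes (C1qa, C1qb, C1qc and Cfp) and 3 genes with another or mixed source (Cfd, Fcna and C7). The livers came from C57BL/6 mice, an inbred laboratory strain, aged 29 to 30 weeks. Every mouse ate a control diet (CD) or a high-fat diet (HFD) for 16 weeks, and then received perfluorooctanoic acid (PFOA) or vehicle for a further 8 weeks. PFOA is a persistent fluorinated surfactant, and the high-fat diet was used to make the liver steatotic. The 4 groups, HFD_PFOA, CD_PFOA, HFD_vehicle and CD_vehicle, held 4 mice each, and each mouse was a biological replicate. No allele was altered in any group, so diet and treatment are the only labelled differences. Neither the sex of the animals nor the PFOA dose appears in the sources used here. The comparisons ask how PFOA and the high-fat diet each change complement transcripts, and whether PFOA acts alike on both diets.

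Complement is a cascade of plasma proteins that tags and lyses microbes. It is started by C1q bound to antibody (classical pathway), by mannose-binding lectins and ficolins on sugars (lectin pathway), or by spontaneous turnover of C3 (alternative pathway). All routes meet at the cleavage of C3 and C5, after which C5b, C6, C7, C8 and C9 assemble the membrane attack complex. The liver makes most of the circulating components in hepatocytes, whereas C1q and properdin (Cfp) come mainly from myeloid cells, in liver the Kupffer cells and recruited macrophages. Many hepatocyte-made components are acute phase proteins that respond to interleukin-6 and related cytokines.

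Promoter windows from 250 bases before to 50 bases after the annotated start were available for 21 of the 30 genes (RefSeq, GRCm38.p6), as 23 windows. They were searched on both strands for 5 motifs bound by liver or myeloid factors: GTTAAT (HNF1), TTGCNNAA (C/EBP), CAAAGTCCA (HNF4), the DR1 element, and GAGGAAGT (PU.1). GTTAAT was found in 9 of the 23 windows and in 7.1% of the 32851 windows of all genes. The genes with it were C1ra, C4bp, C7, C8a, C8b, Cfhr2, Cfp, Hc and Vtn. TTGCNNAA was found in 4 windows (C1ra, C1s1, C3 and C9), against 10.8% of all windows. GAGGAAGT was found in 1 window (C1qc), against 3.2% of all windows. CAAAGTCCA (0.475% of all windows) and DR1 (0.0396%) were found in none of the 23. A match describes letters only and is not evidence of binding. The windows below belong to the C8 genes that differed most between groups, to C9 and C3, which share a C/EBP match but not a response, and to C1qc of the macrophage-made genes. They lie at chr4:104876349-104876648 on the minus strand (C8a), chr4:104766067-104766366 on the plus strand (C8b), chr15:6445096-6445395 on the plus strand (C9), chr17:57228087-57228386 on the minus strand (C3) and chr4:136892865-136893164 on the minus strand (C1qc). Each is written 5′ to 3′ along the gene, with the matched motif in capitals; in C8b and C1qc the match reads on the opposite strand.
C8a: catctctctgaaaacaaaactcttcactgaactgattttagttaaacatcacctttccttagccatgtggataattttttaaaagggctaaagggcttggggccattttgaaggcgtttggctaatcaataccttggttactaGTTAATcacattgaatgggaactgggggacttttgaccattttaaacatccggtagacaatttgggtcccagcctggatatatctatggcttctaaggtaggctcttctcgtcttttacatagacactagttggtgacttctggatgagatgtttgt
C8b: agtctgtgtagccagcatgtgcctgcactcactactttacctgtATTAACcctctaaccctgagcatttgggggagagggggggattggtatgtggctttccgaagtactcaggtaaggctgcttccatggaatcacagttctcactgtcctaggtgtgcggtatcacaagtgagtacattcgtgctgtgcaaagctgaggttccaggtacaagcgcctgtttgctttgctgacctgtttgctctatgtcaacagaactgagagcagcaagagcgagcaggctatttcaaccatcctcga
C9: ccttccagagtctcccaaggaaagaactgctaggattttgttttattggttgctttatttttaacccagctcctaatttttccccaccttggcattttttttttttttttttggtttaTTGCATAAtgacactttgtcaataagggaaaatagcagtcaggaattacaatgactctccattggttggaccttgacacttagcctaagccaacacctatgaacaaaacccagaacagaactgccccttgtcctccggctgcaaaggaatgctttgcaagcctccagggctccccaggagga
C3: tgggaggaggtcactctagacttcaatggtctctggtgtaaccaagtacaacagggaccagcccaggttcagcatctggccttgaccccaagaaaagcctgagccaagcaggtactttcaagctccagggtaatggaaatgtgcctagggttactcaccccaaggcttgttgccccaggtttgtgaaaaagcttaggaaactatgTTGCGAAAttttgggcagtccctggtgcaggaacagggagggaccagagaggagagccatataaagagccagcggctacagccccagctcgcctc
C1qc: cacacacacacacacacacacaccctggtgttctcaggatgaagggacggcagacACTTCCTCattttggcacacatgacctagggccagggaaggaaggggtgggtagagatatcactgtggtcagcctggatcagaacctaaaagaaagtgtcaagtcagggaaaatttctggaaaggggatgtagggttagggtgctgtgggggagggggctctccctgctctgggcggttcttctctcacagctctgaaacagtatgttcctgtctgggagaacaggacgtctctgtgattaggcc
The match begins 107 bases before the start of C8a, 206 before that of C8b, 132 before that of C9, 45 before that of C3 and 195 before that of C1qc.

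In GENCODE M21 on GRCm38, several of these genes sit close together. C8a (ENSMUSG00000035031.15) spans 104815679 to 104876398 on chromosome 4, next to C8b (ENSMUSG00000029656.13) at 104766317 to 104804548. The 3 C1q genes lie together on the same chromosome, with C1qa (ENSMUSG00000036887.5) at 136895917 to 136898803, C1qc (ENSMUSG00000036896.5) at 136889804 to 136893065 and C1qb (ENSMUSG00000036905.8) at 136880129 to 136886187. Chromosome 15 carries C6 (ENSMUSG00000022181.16) at 4727175 to 4814967, C7 (ENSMUSG00000079105.4) at 4988762 to 5063740 and C9 (ENSMUSG00000022149.17) at 6445327 to 6498751. C4b (ENSMUSG00000073418.4, 34728380 to 34743882) and its near-identical relative C4a (ENSMUSG00000015451.16, 34809092 to 34823464) lie on chromosome 17, as do C2, Cfb and C3 (ENSMUSG00000024164.15, 57203970 to 57228136). C4bp (ENSMUSG00000026405.14) is on chromosome 1 at 130634773 to 130661632, and Mbl2 (ENSMUSG00000024863.5) on chromosome 19 at 30232942 to 30239687.

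The libraries held 14456524 to 25778125 counts. All 30 complement genes were among the 14998 genes with enough counts to test, and together they took 1.09% to 2.60% of a library's counts, of which C3 alone took 0.475% to 1.13% of the library. Hepatocyte markers were abundant in every liver, with summed levels of 9 markers from 56905 to 146078 CPM (counts scaled to a library of 1e+06). Mouse 1 and mouse 4 of CD_vehicle and mouse 1 of HFD_PFOA stood apart from their groups, and many results of the 30 genes that turn on them are given with and without them. For single genes outside the 30, no value without them is given. Mouse 1 of CD_vehicle was the highest of its group in 12 of 12 acute phase genes (median 1.76 above the other 3 mice on the log2 scale) and in 17 of the 23 hepatocyte-made genes. Mouse 1 of HFD_PFOA was the highest of its group in 20 of these 23 and in 10 of the 12 acute phase genes. Mouse 4 of CD_vehicle was the highest of its group in 6 of 6 B cell markers (median 2.90 above), 14 of 17 macrophage markers and 4 of 4 macrophage-made genes, and the lowest in 16 of the 23 hepatocyte-made genes.

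Levels are given as CPM of the TMM-scaled library, in the order of mice 1 to 4, and are compared between genes only per kilobase of exon (CPM per kb). C3, the protein on which all pathways meet, was the most abundant of the 30 in every group, at 1112 ± 268 CPM per kb in HFD_PFOA, 1230.2 ± 126 in CD_PFOA, 1122 ± 126 in HFD_vehicle and 1414 ± 634 in CD_vehicle (mean ± SD, n = 4 each). In CD_vehicle livers it was followed by vitronectin (Vtn, 923 ± 220.4 CPM per kb), clusterin (Clu, 550.1 ± 159), the C1 inhibitor gene Serping1 (465 ± 152), Mbl2 (322 ± 48.7) and Cfi (305 ± 49.2). Apart from the step from Vtn to Clu, neighbours in that order lay within a SD of each other. C1qa, the most abundant of the macrophage-made genes per kb, stood at 50.2 ± 19.6 CPM per kb in CD_vehicle, and the least abundant genes were C7 at 0.368 ± 0.269, C4a at 2.19 ± 0.251 and Cfd at 2.32 ± 3.35 CPM per kb.

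**Figure D1:**
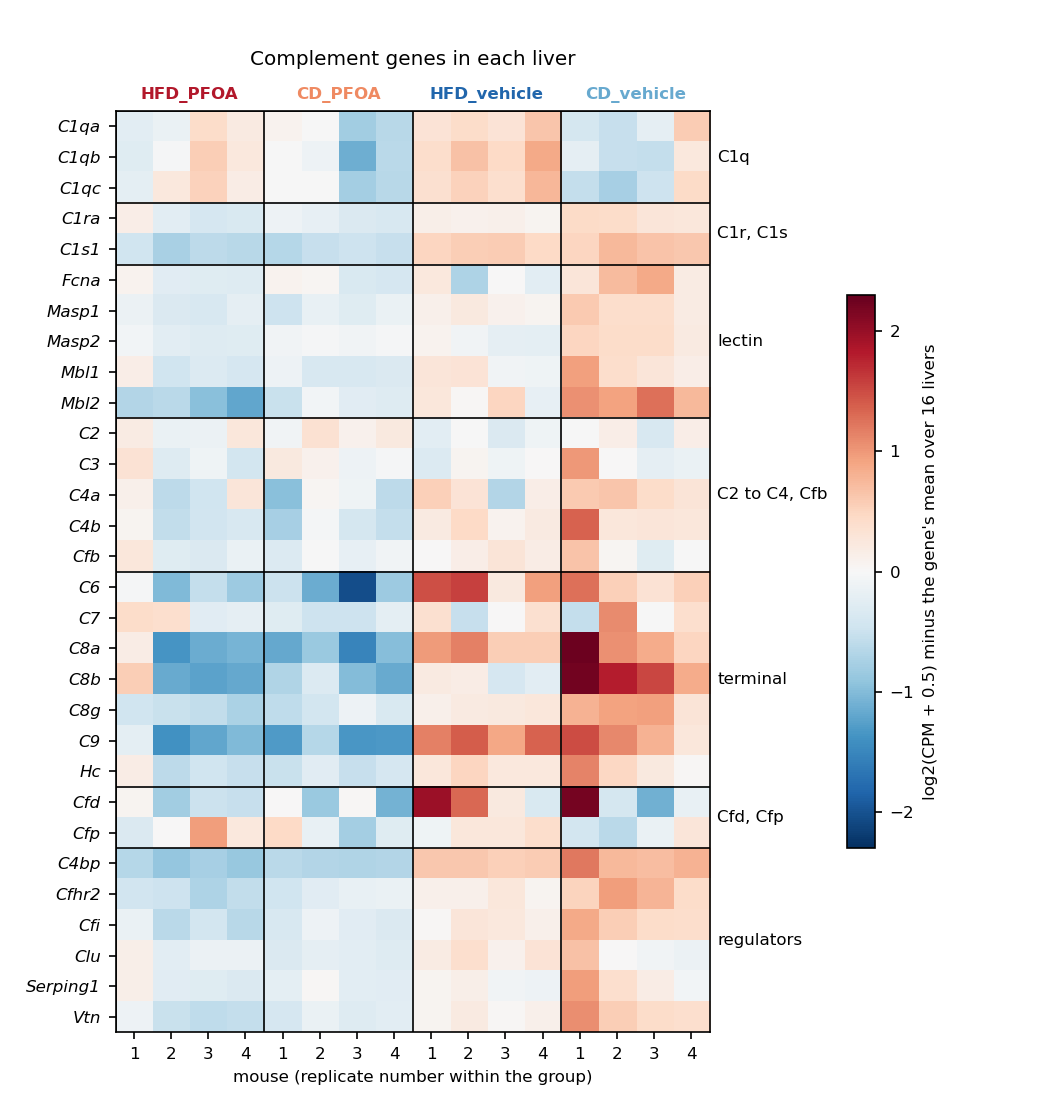
Each row is a complement gene and each column a liver, with the colour giving log2(CPM + 0.5) minus the gene's mean over the 16 livers. Blue in most hepatocyte-made rows marks the HFD_PFOA and CD_PFOA livers, red the CD_vehicle livers, and the 3 C1q rows run redder in HFD_vehicle. Mouse 1 of CD_vehicle is the highest of its group in 18 of the 30 rows.

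PFOA lowered most hepatocyte-made complement genes in control-diet livers. Of the 30 genes, 21 were lower in CD_PFOA than in CD_vehicle and 0 were higher at an edgeR adjusted p under 0.05, where 12.6% of all 14998 genes tested were lower and 11.8% were higher (24.4% in either direction). At an unadjusted p under 0.05 it was 22 of the 30, against 35.4% of all genes. The 21 were 20 of the 23 hepatocyte-made genes and Fcna. None of the 4 macrophage-made genes passed the test. The groups did not overlap in 20 of the 30 genes, each lower in CD_PFOA, as against 11.6% of all genes (11.1% did so on the higher side). The median log2 fold change was -0.90 over the hepatocyte-made genes, -0.12 over the macrophage-made genes and -0.00 over all genes tested. By role, 6 of 7 terminal components fell, 5 of 5 lectin pathway genes, 6 of 6 regulators, 2 of 2 C1 proteases and 2 of 5 proteins of the C3 and C5 convertases. Leaving out each library in turn gave 19 to 21 called genes, and 18 of the 21 were called every time. C4a, Clu and Fcna were each lost without at least 1 library. Without the 3 libraries that stand apart, the count was 21, where 1744 of all 15897 genes tested were lower.

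In high-fat-diet livers PFOA lowered 12 of the hepatocyte-made genes. At an edgeR adjusted p under 0.05, 12 of the 30 were lower in HFD_PFOA than in HFD_vehicle and 0 were higher, against 7.91% lower and 8.6% higher over all genes (16.5% in either direction). At an unadjusted p under 0.05 it was 17 of the 30, against 28.3% of all genes. All 12 were hepatocyte-made: 5 of 7 terminal components, 2 of 5 lectin genes, 4 of 6 regulators and the C1 protease gene C1s1. The groups did not overlap in 13 genes, each lower in HFD_PFOA, as against 12.5% of all genes (12.9% on the higher side). The median log2 fold change was -0.53 over the hepatocyte-made genes, -0.33 over the macrophage-made genes and 0.01 over all genes. The count depends on mouse 1 of HFD_PFOA, which was the highest of its group in 23 of the 30 genes. Without it 16 genes were lower, where 1059 of all 15355 genes tested were. Without the 3 libraries that stand apart 20 were lower, where 1458 of all 15897 genes tested were. Mouse 1 was set apart after its high values in these genes were seen, so the counts without it are not independent results. PFOA in CD and PFOA in HFD were each set against their own vehicle group and share no livers.

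**Figure D2:**
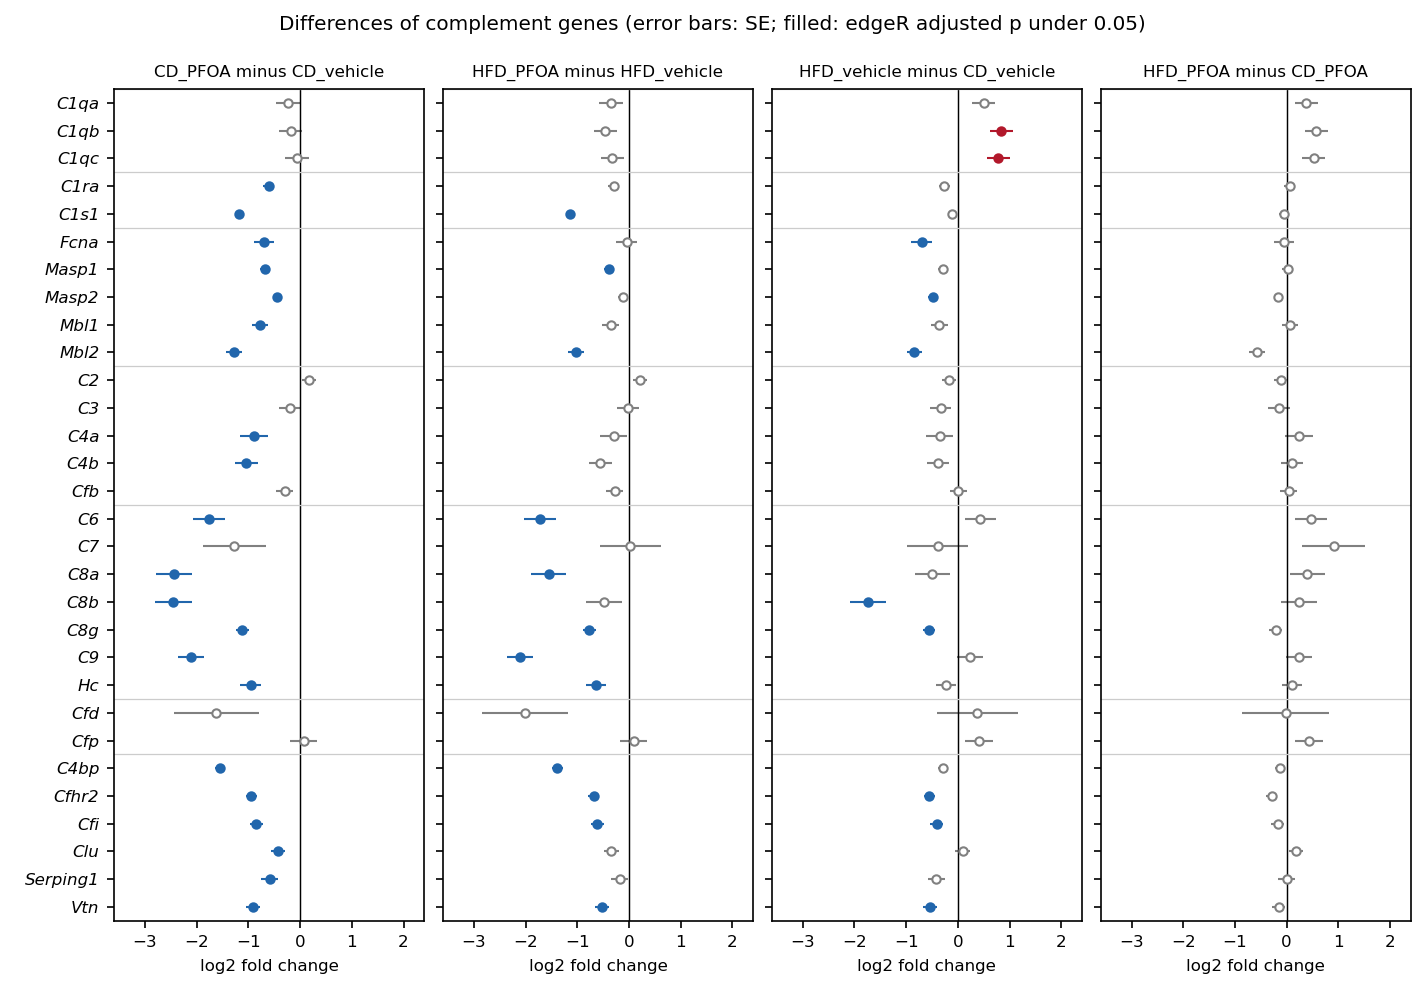
Log2 fold changes of the 30 complement genes, with bars of 1 SE, for CD_PFOA minus CD_vehicle, HFD_PFOA minus HFD_vehicle, HFD_vehicle minus CD_vehicle and HFD_PFOA minus CD_PFOA (4 livers a group). Filled points passed an edgeR adjusted p of 0.05; 21, 12 and 8 genes are filled on the lower side in the first 3 panels, C1qb and C1qc are filled on the higher side in the third, and no point is filled in the last.

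The terminal components build the membrane attack complex, and 6 of 7 fell on the control diet and 5 of 7 on the high-fat diet. C8b, the beta chain of C8, had 30.8, 40.2, 24.8 and 22.1 CPM in the CD_PFOA livers, against 233.7, 177, 146 and 90.4 CPM in the CD_vehicle livers. In high-fat-diet livers C8b had 74.3, 22.1, 21.2 and 21.9 CPM with PFOA, against 57.7, 56.3, 38.4 and 42.2 CPM with vehicle. All control-diet livers given PFOA lay below all given vehicle, but on the high-fat diet mouse 1 of HFD_PFOA exceeded every HFD_vehicle liver while the other 3 lay below them. The log2 fold change of C8b was -2.45 ± 0.36 (SE) in CD, 5.48-fold lower (edgeR adjusted p = 4.14e-05). In HFD it was -0.48 ± 0.35 (edgeR adjusted p = 0.404), and -1.16 without mouse 1 of HFD_PFOA (edgeR adjusted p = 0.00343).

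C8a encodes the alpha chain of C8, which inserts into the membrane. Its level was 101, 127, 79.9 and 115 CPM in CD_PFOA, against 1087, 476, 414 and 321 CPM in CD_vehicle. In HFD_PFOA it was 258, 89.4, 103 and 108 CPM, against 449.8, 509.5, 339 and 337 CPM in HFD_vehicle. The groups did not overlap on either diet, and mouse 1 was the highest of its group in both HFD_PFOA and CD_vehicle. C8a was 5.43-fold lower in CD (log2 change -2.44 ± 0.35, edgeR adjusted p = 3.1e-05) and 2.93-fold lower in HFD (-1.55 ± 0.34, edgeR adjusted p = 0.00292). C8g, whose lipocalin-like gamma chain completes C8, had 86.6, 97.4, 120.1 and 103 CPM in CD_PFOA, against 226.1, 247, 251 and 159.7 CPM in CD_vehicle. On the high-fat diet C8g had 94.7, 90.8, 88.4 and 78.2 CPM in HFD_PFOA, against 142, 151, 152 and 156 CPM in HFD_vehicle. Again no PFOA liver reached a vehicle liver of its diet, but the falls were smaller than those of C8a, at -1.12 ± 0.13 in CD and -0.77 ± 0.12 in HFD on the log2 scale (edgeR adjusted p = 1.69e-06 and 0.000172). Per kb, C8g stood at 1.80 ± 0.674 times the level of C8a in HFD_PFOA and 2.45 ± 0.817 times in CD_PFOA, against 0.928 ± 0.212 times in HFD_vehicle and 1.11 ± 0.421 times in CD_vehicle; this ratio was chosen after its values were seen and was not tested.

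C9, which polymerises into the pore, fell on both diets. It had 70.3, 111, 69.2 and 69.9 CPM in CD_PFOA, against 496, 375, 303 and 209 CPM in CD_vehicle. It had 149, 66.4, 76.1 and 86.4 CPM in HFD_PFOA, against 391, 462, 323 and 449 CPM in HFD_vehicle. Every liver given PFOA was below every liver given vehicle. The log2 fold change was -2.11 ± 0.26 in both, 4.32-fold lower in CD and 4.3-fold lower in HFD (edgeR adjusted p = 4.39e-06 and 6.6e-06), and the difference between the diets was 0.01 ± 0.35.

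C6, which binds C5b and opens the assembly, had 31.9, 20.4, 10.7 and 25.3 CPM in CD_PFOA, against 109, 66.7, 57 and 66.9 CPM in CD_vehicle. In HFD_PFOA C6 had 44.6, 22.1, 30.9 and 25.3 CPM, against 128, 136, 53 and 87.2 CPM in HFD_vehicle. No PFOA liver reached the lowest vehicle liver of its diet. C6 was 3.39-fold lower in CD (log2 change -1.76 ± 0.31, edgeR adjusted p = 0.000321) and 3.29-fold lower in HFD (-1.72 ± 0.31, edgeR adjusted p = 0.000542). Hc, the mouse gene for C5, had 493, 588, 492 and 539 CPM in CD_PFOA, against 1572, 985, 826 and 725 CPM in CD_vehicle. On the high-fat diet Hc had 795, 469, 513 and 491 CPM in HFD_PFOA, against 844, 1003, 839 and 839 CPM in HFD_vehicle. Groups did not overlap, although mouse 1 of HFD_PFOA came close to the vehicle livers. Hc was 1.95-fold lower in CD (log2 change -0.96 ± 0.19, edgeR adjusted p = 0.00105) and 1.55-fold lower in HFD (-0.64 ± 0.19, edgeR adjusted p = 0.0275). The HFD call of Hc was lost without mouse 2 of HFD_vehicle or without mouse 2, 3 or 4 of HFD_PFOA, with edgeR adjusted p of 0.0791 to 0.0956. C7, made largely outside hepatocytes, was barely detected, at 0.306 to 1.06 CPM on the high-fat diet and 0.292 to 1.97 CPM on the control diet, and passed no test.

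**Figure D3:**
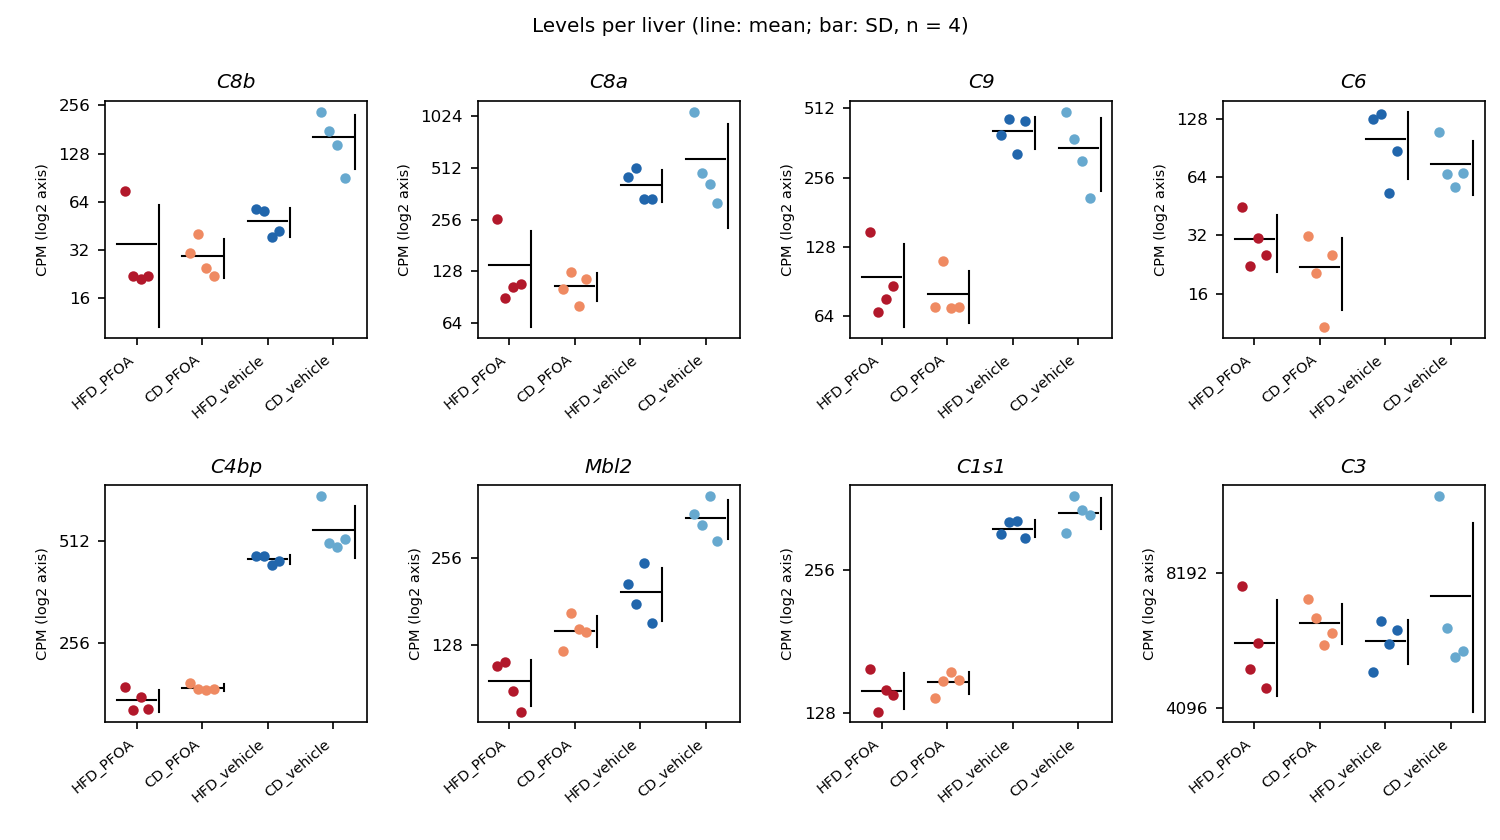
CPM on a log2 axis for 8 complement genes in each liver, with a line at the mean and a bar of 1 SD beside it (n = 4). The bar of C8b in HFD_PFOA is cut short at its lower end. For C8a, C9, C6, C4bp, C1s1 and Mbl2 both PFOA groups lie below the vehicle group of the same diet; for C8b mouse 1 of HFD_PFOA, at 74.3 CPM, lies above the HFD_vehicle livers; the groups overlap for C3.

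In the lectin pathway, PFOA lowered every gene on the control diet and Mbl2 and Masp1 on the high-fat diet. Mbl2, a mannose-binding lectin that recognises microbial sugars, had 122, 166, 146 and 142 CPM in CD_PFOA, against 361, 332, 417 and 291 CPM in CD_vehicle. It had 109, 112, 89.2 and 75.7 CPM in HFD_PFOA, against 208, 177, 246 and 152 CPM in HFD_vehicle. Each PFOA group lay wholly below its vehicle group, and the HFD_PFOA livers were the lowest of all 16. Mbl2 was 2.44-fold lower in CD (log2 change -1.29 ± 0.15, edgeR adjusted p = 3.55e-06) and 2.03-fold lower in HFD (-1.02 ± 0.15, edgeR adjusted p = 7.27e-05). The related lectin Mbl1 averaged 100.03 ± 8.53 CPM in CD_PFOA and 171 ± 45.1 CPM in CD_vehicle, a log2 fold change of -0.77 ± 0.16. Masp1, a protease that travels with these lectins, changed by -0.68 ± 0.10 in CD and -0.39 ± 0.10 in HFD on the log2 scale. Masp2, the protease that cleaves C4 and C2, changed by -0.44 ± 0.09 in CD, and in HFD its value was -0.12 ± 0.09 (edgeR adjusted p = 0.432). Mbl1 in HFD, at -0.35 ± 0.16, did not pass the test (edgeR adjusted p = 0.153), but did without mouse 1 of HFD_PFOA, at -0.51 (edgeR adjusted p = 0.0363).

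Fcna, ficolin A, is a sugar-binding lectin of the same pathway that mouse macrophages make. It had 16.2, 15.9, 12 and 11.5 CPM in CD_PFOA, against 18.8, 25.8, 28.4 and 17.5 CPM in CD_vehicle. It had 16.2, 12.7, 12.5 and 12.5 CPM in HFD_PFOA, against 18.2, 9.18, 15.3 and 12.8 CPM in HFD_vehicle. The control-diet groups did not overlap and the high-fat-diet groups did. The log2 fold change was -0.70 ± 0.20 in CD (edgeR adjusted p = 0.0123) and -0.05 ± 0.20 in HFD (edgeR adjusted p = 0.919). Without mouse 3 of CD_vehicle the CD value was -0.57 (edgeR adjusted p = 0.0519).

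Of the C1 proteases, which C1q activates, C1s1 fell on both diets. C1s1 had 138, 149, 156 and 150.5 CPM in CD_PFOA, against 306, 366, 342 and 334 CPM in CD_vehicle. It had 159, 129, 143 and 139.6 CPM in HFD_PFOA, against 304, 323, 325 and 298 CPM in HFD_vehicle. Spread within groups was small and no group given PFOA touched a vehicle group. C1s1 was 2.27-fold lower in CD (log2 change -1.18 ± 0.09, edgeR adjusted p = 4.25e-09) and 2.19-fold lower in HFD (-1.13 ± 0.09, edgeR adjusted p = 1.01e-08). C1ra, its partner in the C1 complex, changed by -0.61 ± 0.11 in CD (edgeR adjusted p = 0.000246), and its HFD value was -0.29 ± 0.11 (edgeR adjusted p = 0.0656). The HFD value of C1ra passed without mouse 1 of HFD_PFOA, without the 3 libraries that stand apart, and with scaling by library totals. The lowest edgeR adjusted p of these was 0.000626. C1ra and C1s1 each have a close relative in the mouse genome, C1rb and C1s2, with group means of at most 0.106 and 0.323 CPM. The sources used here do not say how reads shared between relatives were counted.

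The proteins that form the C3 and C5 convertases split. C3 had 7146, 6503, 5661 and 5998 CPM in CD_PFOA, against 12136, 6164, 5309.9 and 5488 CPM in CD_vehicle. It had 7655, 4989, 5704 and 4529.8 CPM in HFD_PFOA, against 4910.1, 6396, 5670.3 and 6102 CPM in HFD_vehicle. The groups overlapped throughout, and mouse 1 of CD_vehicle stood far above the rest. The log2 fold change of C3 was -0.20 ± 0.21 in CD (edgeR adjusted p = 0.542), which turned to 0.16 without mouse 1 of CD_vehicle (edgeR adjusted p = 0.473), and -0.01 ± 0.21 in HFD (edgeR adjusted p = 0.982). C2, which supplies the protease of the classical convertase, and Cfb, which supplies that of the alternative convertase, also did not pass. Their values were 0.16 ± 0.14 and -0.30 ± 0.16 in CD, and 0.22 ± 0.14 and -0.27 ± 0.16 in HFD (edgeR adjusted p of 0.208 to 0.424). Cfb in HFD did pass, on the lower side, without the 3 libraries that stand apart (edgeR adjusted p = 0.0119).

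C4b, the main mouse C4 gene, did fall on the control diet. It had 431, 715, 557 and 505 CPM in CD_PFOA, against 1879.6, 878, 898 and 882 CPM in CD_vehicle. It had 771, 495, 539.6 and 573 CPM in HFD_PFOA, against 850.3, 1012, 778 and 845 CPM in HFD_vehicle. All PFOA livers lay below the vehicle livers of their diet, by a narrow margin for mouse 1 of HFD_PFOA. C4b was 2.06-fold lower in CD (log2 change -1.04 ± 0.22, edgeR adjusted p = 0.00137), or -0.68 without mouse 1 of CD_vehicle (edgeR adjusted p = 0.00239). In HFD its value was -0.55 ± 0.21 (edgeR adjusted p = 0.0904), and -0.70 without mouse 1 of HFD_PFOA (edgeR adjusted p = 0.0439). C4a, at 4.65 to 15.1 CPM over all livers, changed by -0.89 ± 0.27 in CD, and was -0.29 ± 0.26 in HFD. Because the C4 genes are near copies, their counts were also summed, which gave -1.04 ± 0.22 in CD (edgeR adjusted p = 0.00134) and -0.55 ± 0.21 in HFD (edgeR adjusted p = 0.0911).

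The fluid-phase regulators restrain the cascade, and 6 of 6 fell on the control diet and 4 of 6 on the high-fat diet. C4bp, which binds C4b and speeds its decay, had 195, 187, 186 and 187 CPM in CD_PFOA, against 698, 506, 492 and 521 CPM in CD_vehicle. It had 189.7, 163, 177 and 164 CPM in HFD_PFOA, against 463, 462, 436 and 449.5 CPM in HFD_vehicle. The 8 PFOA livers sat in a narrow band far below all vehicle livers. C4bp was 2.93-fold lower in CD (log2 change -1.55 ± 0.10, edgeR adjusted p = 1.15e-09) and 2.61-fold lower in HFD (-1.39 ± 0.10, edgeR adjusted p = 7.12e-09). Cfhr2, a plasma protein that binds C3b, changed by -0.94 ± 0.11 in CD and -0.69 ± 0.11 in HFD on the log2 scale. Cfi, the protease that destroys C3b and C4b, changed by -0.85 ± 0.12 and -0.61 ± 0.12. Vtn, which blocks the attack complex, changed by -0.90 ± 0.14 in CD and -0.53 ± 0.13 in HFD. The C1 inhibitor gene Serping1 and Clu, a chaperone that also blocks the attack complex, changed by -0.59 ± 0.16 and -0.43 ± 0.14 in CD. In HFD their values were -0.18 ± 0.16 and -0.34 ± 0.14 and did not pass the test. Without the 3 libraries that stand apart both passed in HFD, Serping1 at an edgeR adjusted p of 0.0192. Clu in HFD also passed with only the 2 HFD groups fitted, and its lower edgeR adjusted p of the 2 fits was 0.000286. Without mouse 1 of CD_vehicle the CD values were -0.35 for Serping1 (edgeR adjusted p = 0.0487) and -0.20 for Clu (edgeR adjusted p = 0.137).

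None of C1qa, C1qb, C1qc and Cfp passed the test under PFOA on either diet. Fcna, which mouse macrophages also make but which stands outside these 4, was lower in CD_PFOA. C1qa, C1qb and C1qc encode the 3 chains of C1q. C1qa had 57.6, 54.4, 31.1 and 34.8 CPM in CD_PFOA, against 41.3, 37.7, 47.6 and 82.2 CPM in CD_vehicle. It had 46.3, 49.3, 73.6 and 62.8 CPM in HFD_PFOA, against 67.9, 73.7, 67.8 and 85.6 CPM in HFD_vehicle. The groups overlapped on both diets, and mouse 4 of CD_vehicle was the high liver of its group. C1qb had 45.6, 42.2, 20.9 and 29.6 CPM in CD_PFOA, against 39.8, 31.8, 31.4 and 54.4 CPM in CD_vehicle. On the high-fat diet C1qb had 37.6, 45.4, 68 and 54.5 CPM in HFD_PFOA, against 61.3, 73.4, 63 and 84.9 CPM in HFD_vehicle. Here too the groups overlapped, with HFD_vehicle the highest group. C1qc had 53.2, 52.9, 30.9 and 34.1 CPM in CD_PFOA, against 36.3, 31.2, 38.1 and 72 CPM in CD_vehicle. It had 45.2, 62.8, 77.2 and 60.2 CPM in HFD_PFOA, against 68.6, 76.7, 70.1 and 90.5 CPM in HFD_vehicle, an overlap again.

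Log2 fold changes of the C1q genes under PFOA ran from -0.23 to -0.06 in CD and from -0.46 to -0.32 in HFD, with edgeR adjusted p of 0.506 to 0.894 and 0.18 to 0.398. C1qb in HFD passed, on the lower side, at an edgeR adjusted p of 0.0313 when only the 2 HFD groups were fitted, and also passed without the expression filter. Without mouse 4 of CD_vehicle the CD values of C1qa, C1qb and C1qc were all above 0. Cfp encodes properdin, which stabilises the alternative convertase. It had 28.6, 18.2, 11.8 and 16.8 CPM in CD_PFOA, against 15.3, 13.2, 18.4 and 25.1 CPM in CD_vehicle. It had 16.2, 20.8, 40.7 and 24.4 CPM in HFD_PFOA, against 19.2, 24.7, 24.7 and 27.5 CPM in HFD_vehicle. The groups overlapped on both diets, with log2 fold changes of 0.07 ± 0.27 in CD and 0.09 ± 0.26 in HFD (edgeR adjusted p = 0.888 and 0.883). That these genes did not pass does not show that they did not change.

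Cfd, adipsin, cleaves Cfb in the alternative pathway and is made mainly by fat cells. It had 1.08, 0.373, 1.1 and 0.245 CPM in CD_PFOA, against 6.76, 0.687, 0.234 and 0.897 CPM in CD_vehicle. It had 1.14, 0.409, 0.622 and 0.588 CPM in HFD_PFOA, against 5.64, 3.42, 1.33 and 0.728 CPM in HFD_vehicle. Levels were low, the groups overlapped, and mouse 1 of CD_vehicle and mice 1 and 2 of HFD_vehicle were high. The log2 fold change was -1.62 ± 0.83 in CD (edgeR adjusted p = 0.17), which became 0.20 without mouse 1 of CD_vehicle, and -2.01 ± 0.83 in HFD (edgeR adjusted p = 0.111). The HFD value passed with only the 2 HFD groups fitted (edgeR adjusted p = 0.0162), without the expression filter (edgeR adjusted p = 0.0234), in DESeq2 (adjusted p = 0.0491) and without the 3 libraries that stand apart (edgeR adjusted p = 0.024). Leaving out single libraries it ran from -2.36 to -1.40, with edgeR adjusted p of 0.077 to 0.357. Of 7 fat cell markers, Lep was at 0 throughout, and Adipoq, Plin1 and Retn reached at most 0.458, 0.375 and 0.124 CPM. The other 3, which liver also expresses, were well detected. Fabp4 averaged 95.9 CPM in HFD_PFOA, 48.5 CPM in CD_PFOA, 26.9 CPM in HFD_vehicle and 13.0 CPM in CD_vehicle. Under PFOA, Fabp4 and Lipe were higher and Car3 was lower on each diet. Their part in the Cfd values was not tested.

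The high-fat diet alone lowered 7 hepatocyte-made genes and Fcna, and raised C1qb and C1qc. In vehicle livers, 2 of the 30 genes were higher on the high-fat diet (C1qb and C1qc) and 8 were lower at an edgeR adjusted p under 0.05, against 5.19% higher and 5.21% lower over all genes (10.4% in either direction). At an unadjusted p under 0.05 it was 16 of the 30, against 24.3% of all genes. The 8 were the hepatocyte-made C8b, C8g, Cfhr2, Cfi, Masp2, Mbl2 and Vtn, and Fcna. The groups did not overlap in 1 gene that was higher (C1qb) and in 9 that were lower, against 7.25% and 7.21% of all genes. Median log2 fold changes were -0.35 over the hepatocyte-made genes, 0.64 over the macrophage-made genes and -0.03 over all genes tested. Scaling by library totals moved the median of all genes to 0.19, and the calls over all genes to 2052 higher and 288 lower, from 779 and 782. On that scale 2 complement genes were higher and 5 lower, and the hepatocyte-made median was -0.13. Leaving out each library in turn gave 6 to 14 calls, and 6 of the 10 genes were called every time (C8b, C8g, Cfhr2, Masp2, Mbl2 and Vtn).

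C8b carried the largest fall of this comparison: its HFD_vehicle livers, at 38.4 to 57.7 CPM, all lay below the CD_vehicle livers, at 90.4 to 233.7 CPM. It was 3.32-fold lower (log2 change -1.73 ± 0.35, edgeR adjusted p = 0.0038), whereas its neighbour C8a was at -0.49 ± 0.33 with overlapping groups (edgeR adjusted p = 0.4), and at 0.02 without mouse 1 of CD_vehicle (edgeR adjusted p = 0.981). Per kb, C8b stood at 0.337 ± 0.0579 times the level of C8a in HFD_PFOA and 0.402 ± 0.0856 times in CD_PFOA, against 0.170 ± 0.0125 times in HFD_vehicle and 0.436 ± 0.102 times in CD_vehicle. The HFD_vehicle ratios, 0.158 to 0.183, lay below the other 12 livers, the lowest of which had 0.274. This ratio was chosen after its values were seen, and was not tested. Mbl2 was 1.79-fold lower (-0.84 ± 0.15, edgeR adjusted p = 0.00157) and C8g 1.47-fold lower (-0.56 ± 0.12, edgeR adjusted p = 0.00687), each with no overlap. Cfhr2, Vtn, Masp2 and Cfi changed by -0.55 to -0.41 on the log2 scale. Fcna was 1.63-fold lower, with groups that overlapped through mouse 1 of HFD_vehicle (-0.70 ± 0.20, edgeR adjusted p = 0.028). C9 (0.23 ± 0.25), C6 (0.43 ± 0.30), C1s1 (-0.11 ± 0.08) and C3 (-0.33 ± 0.21) did not pass, and C3 turned to 0.03 without mouse 1 of CD_vehicle (edgeR adjusted p = 0.932).

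C1qb was 1.8-fold higher in HFD_vehicle, where every liver exceeded every CD_vehicle liver (log2 change 0.84 ± 0.22, edgeR adjusted p = 0.0203). C1qc was 1.72-fold higher (0.78 ± 0.23, edgeR adjusted p = 0.035), and overlapped with CD_vehicle only through mouse 4 of that group. C1qa, at 0.50 ± 0.23, did not pass (edgeR adjusted p = 0.18), nor did Cfp, at 0.42 ± 0.27 (edgeR adjusted p = 0.371). The calls depend on single livers. C1qb was lost without mouse 2 or 3 of CD_vehicle or mouse 2 or 4 of HFD_vehicle, at 0.74 to 0.83 (edgeR adjusted p = 0.0532 to 0.0755). C1qc was lost without mouse 1, 2 or 3 of CD_vehicle or mouse 2, 3 or 4 of HFD_vehicle, at 0.65 to 0.82 (edgeR adjusted p = 0.0536 to 0.11), and C1qa was gained without mouse 4 of CD_vehicle, at 0.81 (edgeR adjusted p = 0.00775).

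Many macrophage markers were higher in the same comparison. Of 17 macrophage and Kupffer cell markers, 10 were higher in HFD_vehicle than in CD_vehicle, against 5.19% of all genes (median log2 fold change 0.83), and none of the 17 was at 0 in all libraries of a group. Cd163, Timd4 and Marco had negative values, -1.66, -0.74 and -0.79, and did not pass. Of other cell types, 6 of 9 stellate cell and fibroblast markers (median 0.89) and 5 of 7 markers of monocytes and lipid-associated macrophages (median 1.68) were also higher. The summed level of the 17 was 541 to 1087 CPM in HFD_PFOA, 316 to 702 CPM in CD_PFOA, 804 to 1096 CPM in HFD_vehicle and 408 to 701 CPM in CD_vehicle. Summed C1q over summed macrophage markers was 0.216 ± 0.0163 in HFD_PFOA, 0.235 ± 0.0263 in CD_PFOA, 0.243 ± 0.0254 in HFD_vehicle and 0.260 ± 0.0256 in CD_vehicle. Fewer cells of a type and less RNA per cell cannot be told apart in whole liver. Under PFOA 0 of the 17 markers were higher and 1 (Mpeg1) was lower on each diet. Over all genes 11.8% were higher and 12.6% lower in CD, and 8.6% and 7.91% in HFD. Of the 17 marker values under PFOA, 11 were positive and 6 negative in CD, and 6 and 11 in HFD. The marker counts against CD_vehicle include its mouse 4, the highest of its group in 14 of the 17, and were not recomputed without it. The part of these cells in the C1q values was not tested.

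**Figure D4:**
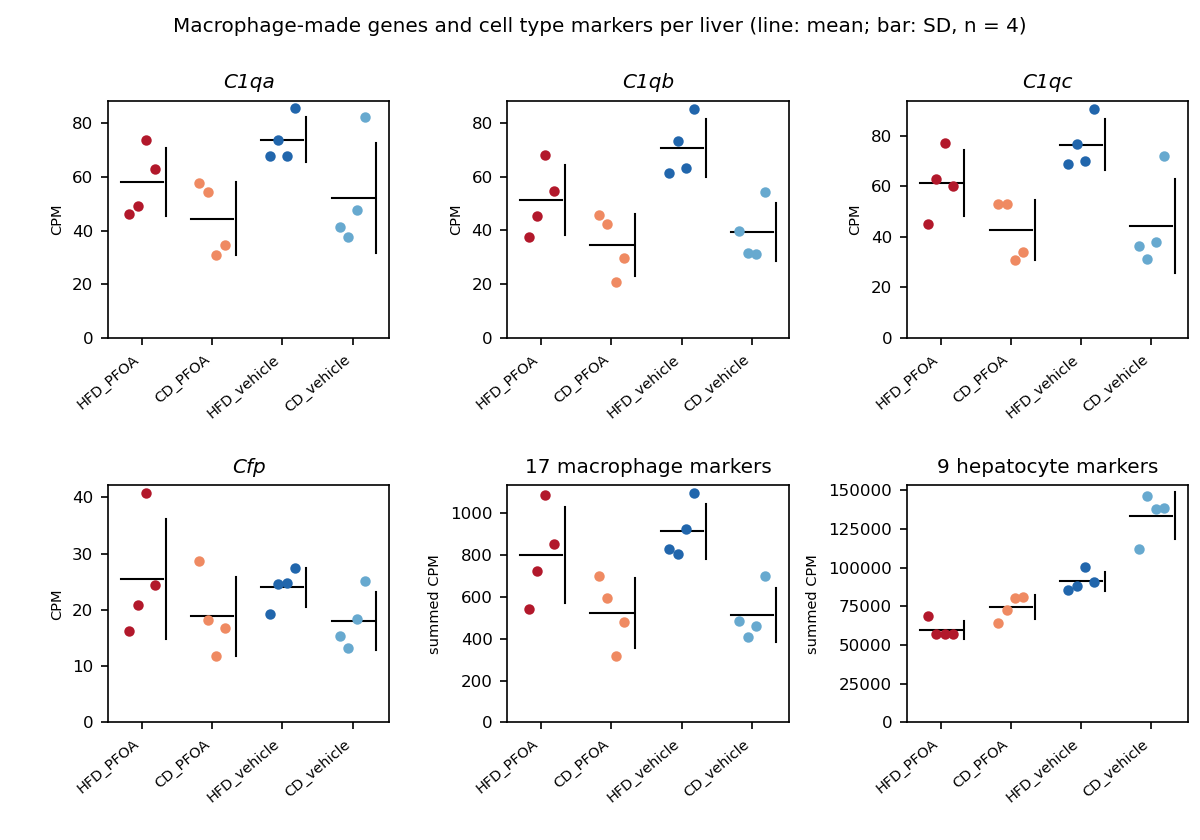
CPM of the 4 macrophage-made genes and summed CPM of 17 macrophage and 9 hepatocyte markers in each liver, with a line at the mean and a bar of 1 SD beside it (n = 4). C1q genes and macrophage markers are highest in HFD_vehicle, with mouse 4 of CD_vehicle standing high in its group; hepatocyte markers are highest in CD_vehicle and lowest in HFD_PFOA.

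Most hepatocyte markers were also lower under PFOA on each diet, and on the high-fat diet with vehicle. Of 9 markers, among them albumin, 8 were lower in CD_PFOA than in CD_vehicle (median log2 fold change -0.88), 8 in HFD_PFOA than in HFD_vehicle (-0.50) and 7 in HFD_vehicle than in CD_vehicle (-0.61). Over all genes tested, 12.6%, 7.91% and 5.21% were lower in the same comparisons. The summed level of the 9 markers was 56905 to 68681 CPM in HFD_PFOA and 64008 to 80766 CPM in CD_PFOA. It was 85445 to 100063 CPM in HFD_vehicle and 111808 to 146078 CPM in CD_vehicle. Albumin was most of it, with 37034 of 56905 CPM in mouse 4 of HFD_PFOA. In mouse 2 of CD_vehicle albumin was 105049 of 146078 CPM. The hepatocyte-made complement medians beside these were -0.90, -0.53 and -0.35. Between HFD_PFOA and CD_PFOA, where none of either list passed, the marker median was -0.31 and the hepatocyte-made complement median 0.02. Without mouse 1 of HFD_PFOA this complement median was -0.11, and the marker median was not recomputed without it. Mouse 1 of CD_vehicle had the lowest marker sum of its group, 111808 CPM, with albumin at 69420 CPM against 101645 to 105049 CPM in mice 2 to 4. Over the 9 markers, however, its median was 0.06 above the other 3 mice on the log2 scale. This mouse was the lowest of its group in 2 of the 9 and the highest in 1. Its hepatocyte-made complement sum, 27806 CPM, was the highest of its group. The 12 acute phase genes had medians of -1.13, -0.65 and -0.69, with 8, 3 and 3 lower. The medians against CD_vehicle include its mouse 1, the highest of its group in all 12, and were not recomputed without it. The summed level of the 12 was 31021 CPM in that mouse and 11625, 10130 and 10188 CPM in mice 2 to 4. In mice 2 to 4 some genes lay below HFD_vehicle (Lcn2, 12.3 to 21.6 against 86.0 to 140 CPM). Others lay mostly above it (Orm1, 448 to 548 against 371 to 474 CPM). What part these markers have in the complement results was not tested.

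**Figure D5:**
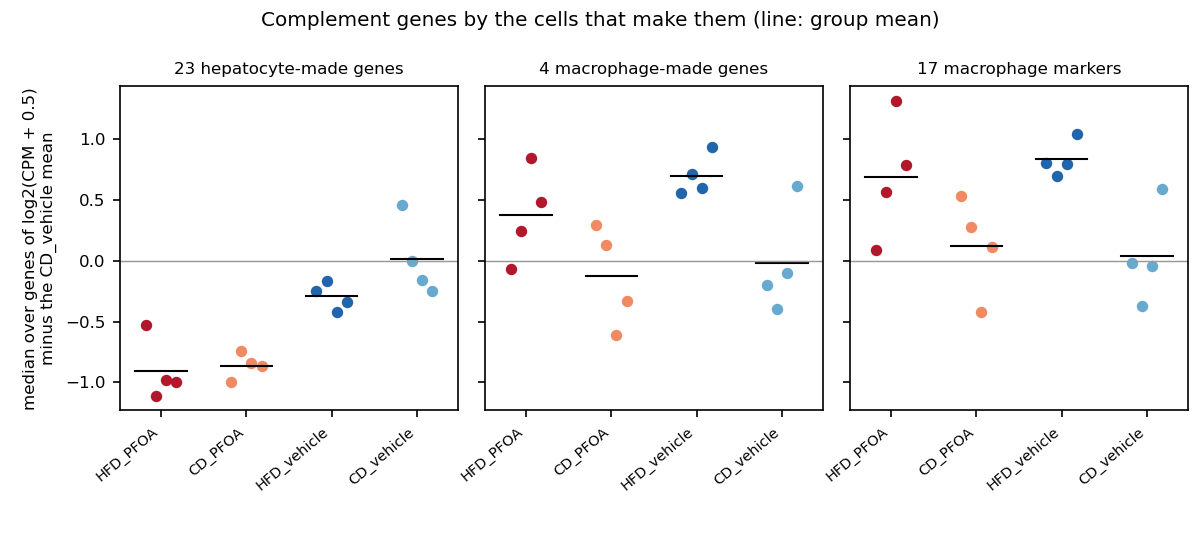
Median over genes of log2(CPM + 0.5) in each liver minus the CD_vehicle mean, for the 23 hepatocyte-made genes, the 4 macrophage-made genes and the 17 macrophage markers, with a line at each group mean. Hepatocyte-made genes average -0.90 in HFD_PFOA, -0.86 in CD_PFOA and -0.29 in HFD_vehicle; macrophage-made genes average 0.38, -0.13 and 0.70 in the same groups.

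No complement gene passed the test between the diets in PFOA livers. At an edgeR adjusted p under 0.05, 0 of the 30 genes differed between HFD_PFOA and CD_PFOA, against 0.06% of all genes (0.0467% higher and 0.0133% lower). In edgeR 4 had an unadjusted p under 0.05, against 11.1% of all genes, and DESeq2 called 1 (Mbl2). Over all genes DESeq2 called 99 higher and 80 lower. Mbl2 was the only gene whose groups did not overlap, lower in HFD_PFOA (3.53% of all genes were wholly lower and 4.15% wholly higher), at -0.57 ± 0.15 (edgeR adjusted p = 0.145). C1qb and C1qc were at 0.57 ± 0.22 and 0.52 ± 0.23 (edgeR adjusted p = 0.342 and 0.408), and Cfhr2 at -0.29 ± 0.11. The hepatocyte-made median was 0.02 and the macrophage-made median 0.48. Of the 23 hepatocyte-made genes, 12 had positive and 11 negative values. Without mouse 1 of HFD_PFOA the medians were -0.11 and 0.62, and 3 hepatocyte-made genes were positive and 20 negative. Without the 3 libraries that stand apart, 2 genes passed, Mbl2 lower and C1qc higher, at -0.63 and 0.65. In that fit 174 genes were higher and 128 lower of all 15897 tested.

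The interaction subtracts the PFOA effect on the control diet from that on the high-fat diet and asks whether PFOA acted differently on the diets. None of the 30 complement genes passed (0 of 30, against 0.207% of all genes, 0.0667% higher and 0.14% lower). By unadjusted p, 5 were under 0.05 in edgeR, against 10.9% of all genes, and DESeq2 called 1 (C8b). Over all genes DESeq2 called 91 higher and 132 lower, against 10 and 21 in edgeR. C8b had the largest value of the 30, 1.97 ± 0.49 (edgeR adjusted p = 0.104). It became 1.29 without mouse 1 of HFD_PFOA (edgeR adjusted p = 0.169) and 2.17 without mouse 4 of CD_vehicle (edgeR adjusted p = 0.0177). The interaction was positive in 23 of 23 hepatocyte-made genes (median 0.30), and in 7925 of 14998 genes tested. For 22 of the 23 this was a less negative value on the high-fat diet, and for C2 a more positive one (0.22 in HFD and 0.16 in CD). Scaled by library totals it was positive in 17 of 23 (median 0.17), and without the 3 libraries that stand apart in 14 of 23 (median 0.07). The smaller number of genes called in HFD than in CD is therefore not shown to be a different response.

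Other genes of complement, listed by general knowledge, were found for 35 symbols, of which 29 could be tested. PFOA lowered 8 and raised 0 of these in CD, against 12.6% lower and 11.8% higher over all genes. In HFD it lowered 5 and raised 1, against 7.91% lower and 8.6% higher. Among other components and relatives, the pentraxin Crp, which can activate C1q, changed by -0.93 ± 0.14 in CD and -0.59 ± 0.14 in HFD (edgeR adjusted p = 6.78e-05 and 0.00641). Cpb2, a carboxypeptidase that inactivates C5a, changed by -0.80 ± 0.14 in CD (edgeR adjusted p = 0.000347), and the C1r-like gene C1rl by -0.60 ± 0.12 (edgeR adjusted p = 0.000784). Cpn1, the catalytic chain of the carboxypeptidase that inactivates C3a and C5a, was the gene higher in HFD_PFOA, at 0.31 ± 0.09 (edgeR adjusted p = 0.0154). Cd59a, a membrane inhibitor of the attack complex, averaged 62.7 CPM in CD_PFOA and 83.9 CPM in CD_vehicle, and 56.6 CPM in HFD_PFOA and 99.2 CPM in HFD_vehicle (log2 fold changes -0.42 ± 0.09 and -0.81 ± 0.09, edgeR adjusted p = 0.00257 and 4.36e-06). Of the receptors tested, Calr, a C1q-binding chaperone, changed by -0.92 ± 0.15 in CD and -0.77 ± 0.15 in HFD. Mouse 1 of CD_vehicle was the highest of its group in Calr (1768 against 889 to 1053 CPM), Crp (704 against 348 to 484 CPM) and Cpb2 (596 against 319 to 426 CPM). The CD values of these genes were not recomputed without it.

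Some receptors of complement were higher on the high-fat diet in vehicle livers. Of 12 receptors tested, 5 were higher in HFD_vehicle than in CD_vehicle, 0 were lower and 7 did not pass, against 5.19% higher over all genes. The median log2 fold change was 0.73, and 3 of the 12 values were negative. C5ar1, the main C5a receptor of myeloid cells, averaged 5.37 CPM in HFD_vehicle and 1.29 CPM in CD_vehicle (2.06 ± 0.37, edgeR adjusted p = 0.00159). C3ar1, the C3a receptor, averaged 7.31 CPM in HFD_vehicle and 2.54 CPM in CD_vehicle (1.53 ± 0.48, edgeR adjusted p = 0.0482). Itgax and Itgb2, the chains of complement receptor 4, were at 1.84 ± 0.487 and 1.002 ± 0.303 (edgeR adjusted p = 0.0202 and 0.041), and Cd93 at 0.97 ± 0.18 (edgeR adjusted p = 0.0022). Itgax is itself on the list of monocyte markers, and 10 of 17 macrophage markers were higher in the same comparison. The part of these cells in the receptor values was not tested.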

How the data were processed

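Liver RNA of 16 mice was sequenced from non-stranded libraries, per the labels' protocols. The deposited values are raw read counts per gene made by the authors. STAR 2.5.2b, featureCounts (Subread 1.6.0), Trimmomatic 0.33 and bcl2fastq 2.20.0.422 are listed with GRCm38 (mm10), per the submitters' processing notes. The annotation release is absent from these notes. Groups came from the labels, and 0 columns of the table were unused. Replicate numbers follow the order of the records and pair no mice. Libraries of a group differed by more than counting noise (8.56 to 154 in chi-square per degree), so each was counted as 1 mouse.

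Of 53465 genes, 25509 were at 0 in every library and 14998 passed edgeR's expression filter. Counts were scaled by TMM and tested in R 4.3.3 with edgeR 4.0.16, by quasi-likelihood F tests over the 4 groups (12 residual degrees of freedom, common biological coefficient of variation 0.242). The Benjamini-Hochberg adjustment covered all genes tested, and genes were called at an adjusted p under 0.05. Standard errors are the log2 fold change over the square root of F. Totals of 14456524 to 25778125 counts, without molecular identifiers, set the counting error only. Gene positions and exon lengths came from GENCODE M21, in which all 30 IDs matched without their version. Alternatives were library totals, DESeq2 1.42.0 size factors and its Wald test, no expression filter, a fit of only the groups compared, and leaving out libraries. The procedure was tested on simulated data. The split by source, the roles and the marker lists follow general knowledge, and the members and lists were chosen with earlier results of these data known. Values per mouse are given for up to 6 called genes with the largest change in each comparison, the macrophage-made genes, C3, Hc, C4b and Cfd; C1s1 was added after its values were seen. Other genes are given by role, and up to 5 of each other list by smallest p. An item of those lists is not reported here.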

Additional observations from a re-analysis of the deposited data

Results flagged for a closer look

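In each gene and group, the highest or lowest liver was checked for standing far from the other 3 by Dixon's rule for its gap over the whole range. Chance flags about 1 in 20 groups, and 17 of the 120 groups checked were picked out, each through its highest liver.

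In HFD_PFOA, mouse 1 stood apart in 6 genes, with Hc at 794.535 CPM, C8a at 257.996 CPM, C8b at 74.3063 CPM, Serping1 at 890.786 CPM, Vtn at 1117.73 CPM and Fcna at 16.183 CPM. In CD_PFOA, mouse 2 stood apart in C9 at 110.837 CPM and Serping1 at 822.936 CPM, and mouse 1 in Mbl1 at 112.724 CPM and C4bp at 195.377 CPM. In HFD_vehicle, mouse 2 stood apart in Hc at 1003.14 CPM. In CD_vehicle, mouse 1 stood apart in 5 genes, with C3 at 12136.5 CPM, C4b at 1879.57 CPM, C4bp at 698.271 CPM, Clu at 2703.52 CPM and Cfd at 6.75504 CPM. Mouse 4 of CD_vehicle stood apart in C1qc at 72.0196 CPM.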

How the results depend on the processing

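No paired analysis was possible because the labels give no replicate numbers that tie mice of different groups. Leaving out each library in turn gave 19 to 21 called complement genes for PFOA in CD, 11 to 16 for PFOA in HFD, 6 to 14 for HFD in vehicle, 0 to 0 for HFD in PFOA and 0 to 1 for the interaction (1, C8b, without mouse 4 of CD_vehicle). Leaving out the 3 libraries that stand apart, chosen after seeing the data, gave 20 for PFOA in HFD against 12 with all libraries, 2 for HFD in PFOA and 1 for the interaction. Fitting only the 2 groups compared gave 6 for HFD in vehicle, against 10, and 1 for HFD in PFOA. DESeq2 and no expression filter each gave 1 for HFD in PFOA (Mbl2) and 1 for the interaction (C8b). The cause was not tested. No value changed sign while called. Over all results, 1313 leave-one-out values kept their direction and side of the threshold, 31 were no longer called, 10 became called and 86 moved; for other settings these were 789, 10, 31 and 43. Depth limits C7 and Cfd, which held at most 1.97 and 6.76 CPM. Over all genes, the calls for HFD in vehicle were 490 higher and 406 lower with only those 2 groups fitted, against 779 and 782. For HFD in PFOA they were 142 and 83 without the filter, 75 and 54 with 2 groups and 99 and 80 in DESeq2, against 7 and 2. For the interaction they were 131 and 159 without the filter and 91 and 132 in DESeq2, against 10 and 21. Library totals moved the PFOA in CD calls to 2160 higher and 1376 lower, against 1763 and 1893.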

Other observations

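Of 20 genes for hepatic transcription factors and cytokine signalling, listed by general knowledge, 3 were higher and 6 lower in CD_PFOA than in CD_vehicle, against 11.8% higher and 12.6% lower over all genes. In HFD_PFOA 2 were higher and 8 lower than in HFD_vehicle, against 8.6% and 7.91% over all genes. The counts on the higher side are near those shares. Il6ra, the interleukin-6 receptor, averaged 12.6 CPM in CD_PFOA and 28.5 CPM in CD_vehicle, and 11.5 CPM in HFD_PFOA and 51.1 CPM in HFD_vehicle. Its log2 fold changes were -1.18 ± 0.23 and -2.15 ± 0.24 (edgeR adjusted p = 0.000792 and 1.81e-06). Stat3, which carries the interleukin-6 signal, changed by -0.85 ± 0.21 in CD and -0.69 ± 0.21 in HFD. It had 61.3, 91.8, 63.3 and 61.2 CPM in CD_PFOA, against 209, 95.9, 88.7 and 106 CPM in CD_vehicle. Mouse 1 of CD_vehicle stood far above the rest, and the CD value of Stat3 was not recomputed without it. Hnf4a, a hepatocyte transcription factor, changed by -0.48 ± 0.11 and -0.41 ± 0.11 (edgeR adjusted p = 0.00234 and 0.0106). Esr1, the oestrogen receptor, changed by -2.12 ± 0.33 in CD and -1.64 ± 0.33 in HFD (edgeR adjusted p = 7.15e-05 and 0.00132). Ppara, a nuclear receptor of lipid metabolism, averaged 119.9 CPM in CD_PFOA and 66.2 CPM in CD_vehicle (0.86 ± 0.10, edgeR adjusted p = 1.81e-06). On the high-fat diet Ppara averaged 129.8 CPM in HFD_PFOA and 111.6 CPM in HFD_vehicle (0.22 ± 0.10, edgeR adjusted p = 0.133). Whether any of these bears on the complement genes was not tested.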
